A study of Caenorhabditis elegans with 2 samples.

Results

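The genes described here encode the protein quality control machinery of Caenorhabditis elegans: molecular chaperones, the segregase CDC-48 with its cofactors, and the subunits of the proteasome. They are 100 of the 19985 protein-coding genes of the Ensembl release 115 annotation, taken by symbol: 60 chaperone genes (hsp, dnj and cct genes, with the heat shock regulator hsf-1), 7 CDC-48 genes (cdc-48.1, cdc-48.2, ufd and npl-4 genes) and 33 proteasome genes (pas and pbs genes of the core particle, rpn and rpt genes of the regulatory particle). The annotation lists daf-21 as hsp-90. The measurement was chromatin immunoprecipitation sequencing (ChIP-seq) of NHR-28, a nuclear hormone receptor, carried as an eGFP fusion. The material was whole embryos of mixed stage and mixed sex from strain OP317, which carries unc-119(ed3) III and the transgene wgIs317, as 2 biological replicates of 1 group. All samples shared this genotype, the cells of the embryos were not separated, and no group without the tagged receptor was analysed here, so signal that does not depend on NHR-28 cannot be told apart from its binding. The labels name nhr-28 as the antibody in one field and the eGFP fusion in another.

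Region lists on genome build ce11 were used, each with the authors' signal value and a summit for every region. The list that passed the irreproducible discovery rate (IDR) filter held 238 regions, and the relaxed pooled list held 30000. Replicate 1 gave 14746 relaxed regions and replicate 2 gave 4556, of which 349 and 236 had a q-value of at most 0.05 in the authors' lists. The relaxed lists reach deep into weak regions by design, and the sequencing depth is unknown. Each gene was given the strongest region of a list whose summit lay within 1000 bp of one of its annotated 5' ends. Distances are from that 5' end to the summit, negative upstream. Signal values were compared only within a list.

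Chaperones fold and refold proteins: small heat shock proteins hold unfolded clients, Hsp70 proteins (hsp-1, hsp-3, hsp-6) cycle on and off them, J proteins (dnj genes) deliver clients to Hsp70, and the CCT ring (cct genes) encloses actin and tubulin. CDC-48 is an ATPase that, with UFD-1 and NPL-4, pulls ubiquitylated proteins out of complexes and membranes. The proteasome then degrades them, its regulatory particle unfolding the substrate and its core cutting it.

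The strongest region of the 100 genes lay upstream of cdc-48.1, which encodes one of the CDC-48 ATPases. IDR peaks also lay upstream of dnj-14, the cysteine string protein of synaptic vesicles, and of dnj-13, a cytosolic J protein, and the summits of these 3 genes are printed. The remaining IDR peak, at dnj-29, is stronger than that of dnj-13; its sequence is not shown and did not enter the comparison of stretches. Each stretch is read on the plus strand of ce11 with the summit at base 61, cdc-48.1 from chrII:10563517-10563637, dnj-13 from chrII:11545402-11545522 and dnj-14 from chrX:4712021-4712141. Capitals mark the longest run that the dnj-13 and dnj-14 stretches share when 1 base may differ.
cdc-48.1: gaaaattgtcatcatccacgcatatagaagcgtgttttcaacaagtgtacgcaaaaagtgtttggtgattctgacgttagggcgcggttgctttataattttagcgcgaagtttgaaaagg
dnj-13: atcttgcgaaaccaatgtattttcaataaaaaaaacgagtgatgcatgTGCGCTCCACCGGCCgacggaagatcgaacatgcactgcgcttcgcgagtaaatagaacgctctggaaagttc
dnj-14: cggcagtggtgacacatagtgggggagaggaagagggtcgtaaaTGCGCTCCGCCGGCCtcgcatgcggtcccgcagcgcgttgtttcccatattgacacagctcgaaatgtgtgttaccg
The shared run, TGCGCTCCNCCGGCC, starts 12 bp to the left of the dnj-13 summit and 16 bp to the left of the dnj-14 summit. It was noticed by eye after these stretches had been printed, no other pair of stretches was compared, and several shorter runs had been tried first. On both strands the 15 letters occurred 2 times in the genome, which are these 2 places. That rarity follows in part from choosing the longest run: its first 13 letters occurred 12 times in the genome and within 100 bp of the summit in 4 pooled regions, 2 of them IDR peaks, and its first 11 letters occurred 135 times in the genome and in 17 pooled regions, 3 of them IDR peaks.

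Further stretches carry the heat shock letters GAANNTTC or TTCNNGAA, which are marked in capitals. These letters are the inverted pairs of units that heat shock factor binds. The dnj-13 stretch above also holds 1 such pair, at its right end, left in lower case. The region between hsp-110, an Hsp70 exchange factor, and rpn-3, a proteasome lid subunit, is shown at chrIII:8447135-8447255, and that upstream of hsp-1, the constitutive cytosolic Hsp70, at chrIV:17278544-17278664, both with the summit at base 61. The stretch between the divergent small heat shock genes hsp-16.2 and hsp-16.41, chrV:1804958-1805177, is shown for contrast, since its pooled region was among the weakest; the summit, at chrV position 1805211, lies outside the printed bases. All are on the plus strand of ce11.
hsp-110 and rpn-3: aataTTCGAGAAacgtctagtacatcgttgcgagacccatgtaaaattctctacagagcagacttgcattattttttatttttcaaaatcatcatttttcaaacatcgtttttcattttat
hsp-1: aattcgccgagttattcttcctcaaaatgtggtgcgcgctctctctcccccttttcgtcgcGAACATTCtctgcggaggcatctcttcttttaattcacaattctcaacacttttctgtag
hsp-16.2 and hsp-16.41: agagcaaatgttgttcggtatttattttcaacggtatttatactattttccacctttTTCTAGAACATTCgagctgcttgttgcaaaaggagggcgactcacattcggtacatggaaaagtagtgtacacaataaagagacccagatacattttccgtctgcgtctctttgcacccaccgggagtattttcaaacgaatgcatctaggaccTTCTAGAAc
The hsp-16 stretch holds 3 such pairs, 2 of which overlap. The pooled signal was 55.35 at hsp-110 and rpn-3, 45.5 at hsp-1, and 13.05 at hsp-16.2 and hsp-16.41; these stretches were picked with their signals known, so no relation between letters and signal can be read from them.

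Regions were frequent at the 100 genes in the relaxed lists and rare in the strict one. An IDR peak was present at 4 of them (95% Wilson interval 1.57 to 9.84%), beside 0.921% of all protein-coding genes. A pooled region was present at 74 (64.6 to 81.6%), beside 53.7% of all genes. Replicate 1 had a region at 56 of the genes, beside 32.6% of all, and replicate 2 at 31, beside 13.2% of all. Both replicates had one at 26 genes (18.4 to 35.4%), beside 8.04% of all genes. The 2 replicate regions overlapped at 24 of the 100 genes, beside 5.13% of all genes; of the genes with a region in both replicates that is 92.3%, against 63.8% over all such genes. A region with a q-value of at most 0.05 was present at 7 genes in replicate 1, beside 1.3% of all, and at 5 in replicate 2, beside 0.876% of all. One of the 1000 strongest pooled regions was present at 21 genes, beside 3.87% of all. No list had a region at 22 of the 100 genes, and 4 genes had a replicate region without a pooled one. These counts were not made over all genes, so they have no background to be set beside. The Wilson intervals treat genes as independent, which neighbours sharing a region are not.

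The families differed in how many of their genes had a region and in its strength. Pooled regions were present at 48 of 60 chaperone genes (80.0%), 4 of 7 CDC-48 genes (57.1%) and 22 of 33 proteasome genes (66.7%). The share of all genes was 53.7%, so the CDC-48 pooled share was near the background. Regions in both replicates were present at 18 chaperone genes (30%), 4 CDC-48 genes (57.1%) and 4 proteasome genes (12.1%), beside 8.04% of all genes. Among the 1000 strongest pooled regions were those of 15 of 60 chaperone, 3 of 7 CDC-48 and 3 of 33 proteasome genes, beside 3.87% of all. With regions in both replicates the proteasome genes were closest to the background of all genes, and the CDC-48 share rests on few genes: it was 28.6% with a window of 500 bp or with replicate 1 shortened to the length of replicate 2. The proteasome pooled share fell below that of all genes under other rules: 36.4% against 36.8% of all genes with a window of 500 bp, and 39.4% against 47.8% when a summit counted only for its nearest gene.

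**Figure D1:**
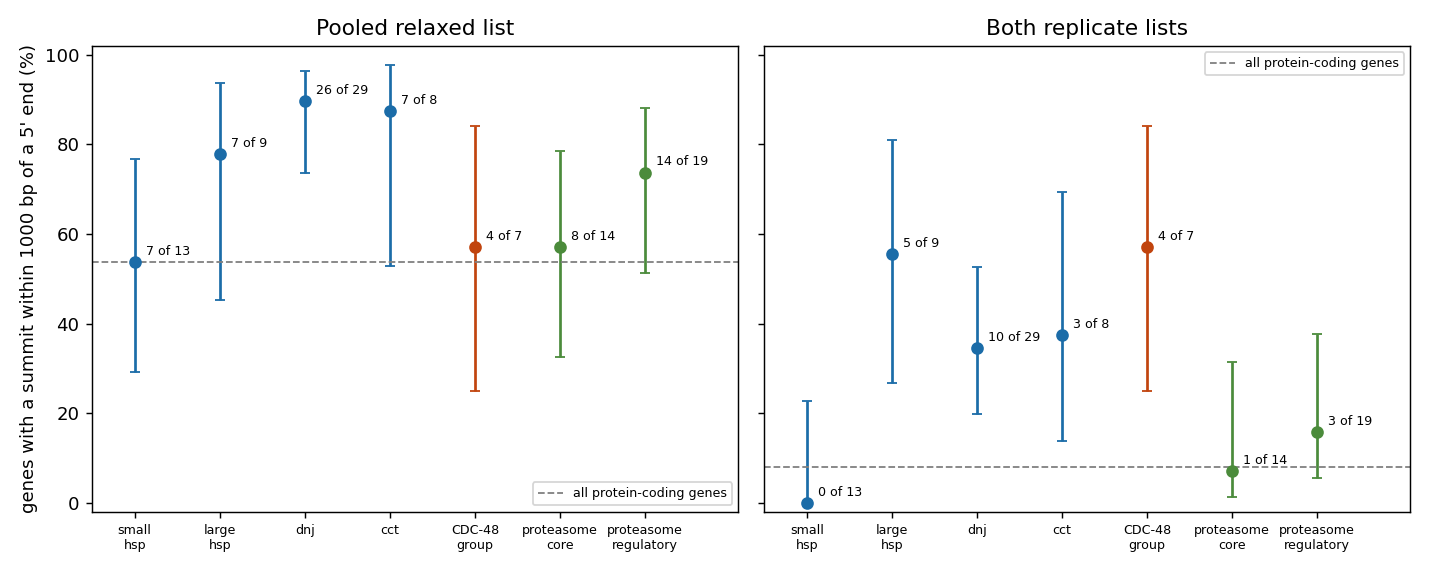
Share of genes (percent, vertical axes) with a summit within 1000 bp of a 5' end, by family, in the pooled list (left) and in both replicate lists (right); points are shares, bars are 95% Wilson intervals, and the dashed line is the share of all protein-coding genes. Of the small heat shock genes 7 of 13 had a pooled region and 0 of 13 had one in both replicates, while the CDC-48 genes had 4 of 7 in each; hsf-1, a family of 1 gene, is not drawn.

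The CDC-48 group held the strongest single region and also genes with none. At cdc-48.1 the summit lay at -170 bp, with a pooled signal of 126.7 that ranked 29 of 30000. Replicate 1 gave 67.93 there (rank 35, authors' q-value 0.00809) and replicate 2 gave 60.18 (rank 30, authors' q-value 0.00498), so the region was near the top of both lists. The second ATPase gene, cdc-48.2, had a pooled signal of 34.98 at -770 bp, with 18.94 in replicate 1 and 15.91 in replicate 2. The gap between the 2 ATPase genes held in each replicate.

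Among the cofactors, ufd-2, which encodes a ubiquitin chain elongation factor, had a pooled signal of 35.04, with 13.63 in replicate 1 and 21.22 in replicate 2. At ufd-3, a CDC-48 cofactor gene, the pooled signal was 24.47, and the replicate values of 10.6 and 16.68 came from summits 3261 bp apart. The strongest regions of the replicates were thus at different places. Weaker regions were not compared, so one at the same place may have been passed over. No list had a region at ufd-1, npl-4.1 or npl-4.2, which encode the substrate-recruiting cofactors. Values in the group thus ran from the 29th strongest region of the pooled list to none.

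**Figure D2:**
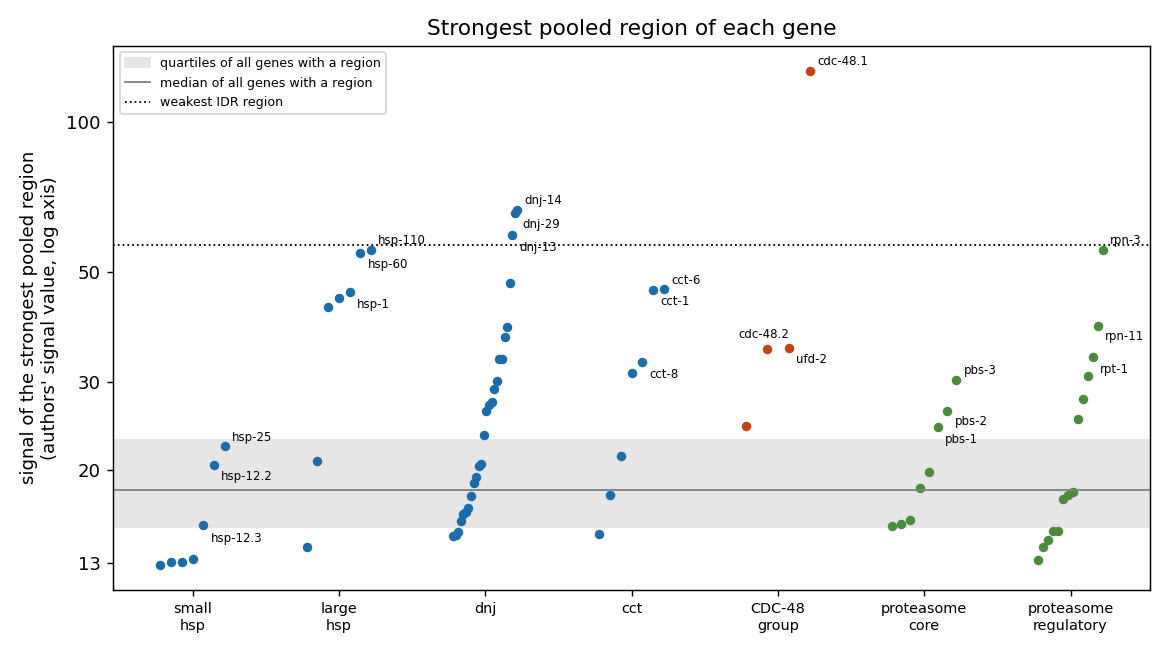
Authors' signal of the strongest pooled region of each gene (vertical log axis) by family, each point a gene with a region, with the quartiles and median of all protein-coding genes that have one (grey) and the weakest IDR region (dotted line, 56.43). cdc-48.1 stands highest at 126.7, the small heat shock genes end at 22.31, and hsf-1 at 20.1 is not drawn.

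Large heat shock genes carried strong regions that fell short of the IDR list. Of 9 genes, 7 had a pooled region (77.8%, against 53.7% of all genes) and 5 had one in both replicates (55.6%, against 8.04%). The pooled regions of 5 were among the 1000 strongest (55.6%, against 3.87%). The median pooled signal was 44.15 over the 7, against 18.22 over all genes with a region. Of these 7 summits, 3 were nearest to their own gene (42.9%, against 85.4% over all genes with a pooled region). The shared hsp-110 and rpn-3 region gave 18.49 in replicate 1 (rank 1457, authors' q-value 0.497) and 37.61 in replicate 2 (rank 120, authors' q-value 0.0293), so it was strong in 1 replicate. The reverse held at hsp-60, the mitochondrial chaperonin, with 39.07 in replicate 1 (rank 135) and 14.15 in replicate 2 (rank 3987) beside a pooled 54.4; its pooled summit was nearer to the gene Y22D7AL.10.

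The main cytosolic and endoplasmic reticulum Hsp70 genes were more even. At hsp-1 replicate 1 gave 29.21 and replicate 2 gave 21.36. At hsp-3, an Hsp70 of the endoplasmic reticulum, the pooled signal was 44.15 at -80 bp, with 22.12 and 26.78 in the replicates. At hsp-90, the cytosolic Hsp90, the pooled signal was 42.41. The summits of the strongest region of each replicate lay at 915 bp (15.8) and -370 bp (23.2), which is 1285 bp apart. Only the strongest regions were compared, so a weaker replicate 1 region at the pooled summit may have been passed over. The hsp-90 pooled summit lay within the annotated gene, upstream of an internal 5' end, and was nearer to the gene C47E8.4. The mitochondrial hsp-6 and hsp-75 had pooled signals of 20.83 and 14 with no region in replicate 2, and the hsp-6 summit was nearer to the gene C37H5.5. No list had a region at hsp-4, the second Hsp70 of the endoplasmic reticulum, or at hsp-70, a heat-inducible Hsp70.

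Small heat shock genes had the lowest median pooled signal of the families. Of 13 genes, 7 had a pooled region (53.8%, against 53.7% of all genes), 3 had one in replicate 1 (23.1%, against 32.6%) and 0 in replicate 2 (against 13.2%), so the pooled share was at the background. The highest pooled signals were 22.31 at hsp-25 and 20.39 at hsp-12.2, followed by 15.46 at hsp-12.3 and 13.23 at hsp-17. The summits of hsp-12.3 and hsp-17 were nearer to F38E11.9 and gcy-7. The median over the 7 genes was 13.23, at the 3.85th percentile of genes with a region. The hsp-16.1 and hsp-16.48 genes, 4 in all, had no region; each symbol belongs to 2 near-identical genes, where reads that match both copies may have been dropped or split, so their absence is uncertain. The regulator hsf-1 had a pooled signal of 20.1 and 14.2 in replicate 1, and no region in replicate 2.

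J protein genes supplied 3 of the 4 IDR peaks, at 10.3% of these genes against 0.921% of all genes. Of 29 genes, 26 had a pooled region (89.7%, against 53.7% of all genes) and 24 had one in replicate 1 (82.8%, against 32.6%). Both replicates had one at 10 (34.5%, against 8.04%). In all 10 the replicate regions overlapped, against 63.8% over all genes with both. At dnj-14 the pooled signal was 66.52 (rank 164), with 33.0 in replicate 1 and 32.36 in replicate 2. Its summit, at -333 bp, was nearer to the 5' end of glit-1, so the region cannot be assigned to either gene. At dnj-29, which encodes a SEC63-type protein of the translocation channel, the pooled signal was 65.5 at -135 bp, with 32.12 and 35.06 in the replicates. At dnj-13 it was 59.36 at -239 bp, with 31.91 and 27.9. In replicate 1 dnj-14, dnj-29 and dnj-13 ranked 221, 233 and 240, and in replicate 2 they ranked 171, 137 and 247. All but dnj-13 in replicate 2 (authors' q-value 0.0548) had a q-value of at most 0.05.

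Below the IDR list, dnj-12 had a pooled signal of 47.42, with 25.99 and 23.01 in the replicates. The next were dnj-9 at 38.61 (12.13 and 25.71), dnj-11 at 37 (21.53 and 16.23), dnj-7 at 33.44 (14.19 and 16.83) and dnj-19 at 33.35 (12.88 and 20.33). The dnj-19 summit was nearer to the gene nhr-47. dnj-20 had 30.08, with 17.85 in replicate 1 and no region in replicate 2. The gene dnj-27, for a thioredoxin-containing J protein of the endoplasmic reticulum, had 28.98. Replicate 1 gave 18.78 there (rank 1363) and replicate 2 gave 18.9 (rank 984). dnj-7 encodes a J protein of the endoplasmic reticulum and dnj-11 a ribosome-associated one. The remaining dnj genes with a pooled region ran from 14.73 upwards, and dnj-2 and dnj-22 had none in any list.

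**Figure D3:**
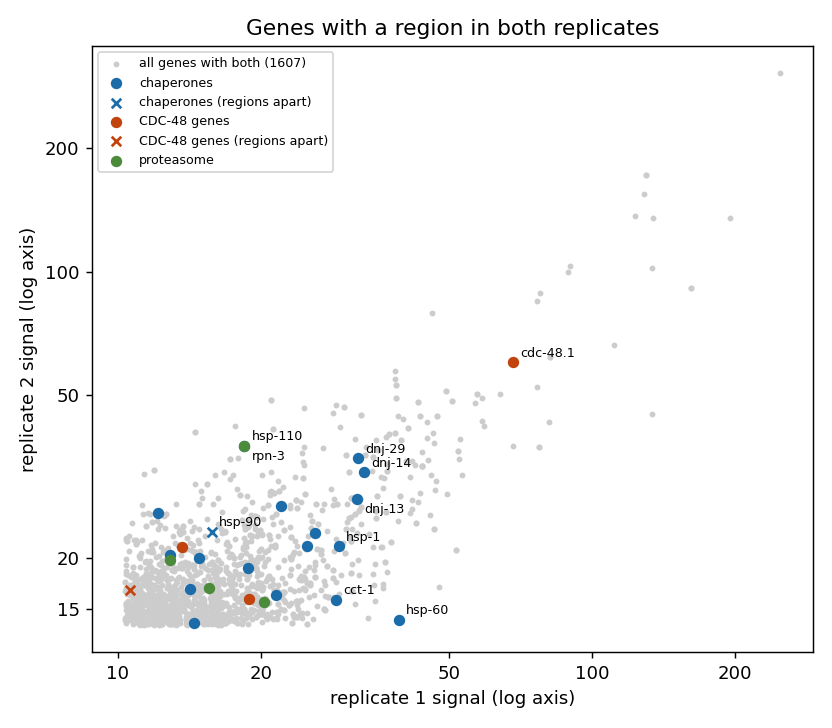
Authors' signal in replicate 1 (horizontal log axis) and replicate 2 (vertical log axis) for genes with a region in both lists. All 1607 such genes are in grey and the 26 chaperone, CDC-48 and proteasome genes in colour. Crosses are genes whose strongest regions in the replicates do not overlap. hsp-110 and rpn-3 share 1 region and 1 point, and cdc-48.1 is the highest of the 26 at 67.93 and 60.18.

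Chaperonin genes had pooled regions at 7 of 8 (87.5%, against 53.7% of all genes), with a median of 31.31. At cct-6 the pooled signal was 46.11 (25.04 and 21.43 in the replicates) and at cct-1 it was 45.9 (28.89 and 15.83). Both summits were nearer to another gene, alh-9 for cct-6 and mig-5 for cct-1, and 5 of the 7 cct summits in all were nearer to a neighbour. cct-8 had 32.88 (14.81 and 19.99), cct-7 had 31.31 without a region in replicate 2, and cct-2 had no region. Values over the ring's subunits ran from none to 46.11.

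Proteasome genes had pooled regions whose median signal, 18.17, was close to the 18.22 of all genes with a region. In the core particle 8 of 14 genes had a pooled region (57.1%, against 53.7% of all genes), with a median of 19.08, and 1 gene had one in both replicates (7.14%, against 8.04%), both shares near the background. That gene was pbs-3, at 30.33 (15.53 and 16.89). The next in the core were pbs-2 at 26.26, pbs-1 at 24.37 and pas-4 at 19.82, each without a region in replicate 2. Their summits were nearer to eif-6, K08D12.3 and rpb-3, in that order. In the regulatory particle 14 of 19 had a pooled region (73.7%, against 53.7% of all genes), with a median of 17.89. Regions in both replicates were present at 3 (15.8%, against 8.04%). Beside rpn-3 these were rpn-11, the deubiquitylase of the lid, with 38.93 at -7 bp (20.3 and 15.64), and rpt-1, an ATPase subunit, with 33.71 (12.9 and 19.73). The lid gene rpn-7 had 30.8, with 16.62 in replicate 2 and no region in replicate 1, and its pooled summit was nearer to F49C12.9.

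No proteasome gene had an IDR summit within 1000 bp (0 of 33, interval 0 to 10.4%), beside 0.921% of all genes, so the count lies near the background. It depends on the window. Upstream of pbs-5 an IDR summit lay at -1144 bp (signal 93.13). Others lay downstream of a 5' end of pbs-6 at 1044 bp (62.75) and of pbs-2 at 1334 bp (57.83), past the 3' end of each gene. All of these count with a window of 2000 bp. These 3 genes encode catalytic or structural beta subunits of the core. Just inside the window of the pooled list lay the upstream summits of dnj-5 at -929 bp and rpt-4 at -954 bp. Just outside it lay the downstream summit of pas-3 at 1030 bp, also past the 3' end of the gene.

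Summits lay upstream at 62 of the 74 genes with a pooled region (83.8%, against 60.4% of all genes with one), at a median of -292 bp against -134 bp. Another gene's 5' end was within the window of the summit at 60.8% of them, against 28.6%, and their own gene was the nearest for 67.6%, against 85.4% of all genes; for 24 of the 74 another gene was nearer. The same held for 8 of the 26 genes with a region in both replicates. How far shared promoters account for the shares of these genes was not tested. Counting a summit only for its nearest gene left 55 genes with a pooled region, against 47.8% of all genes. It left 18 with regions in both replicates, against 6.11%. Several 5' ends were annotated at 40.0% of the 100 genes, against 26.3% of all genes, and a summit upstream of an internal one can lie within the gene. With the outermost 5' end only, 72 genes had a pooled region, against 51.0% of all genes. Both replicates had one at 25, against 6.81%.

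**Figure D4:**
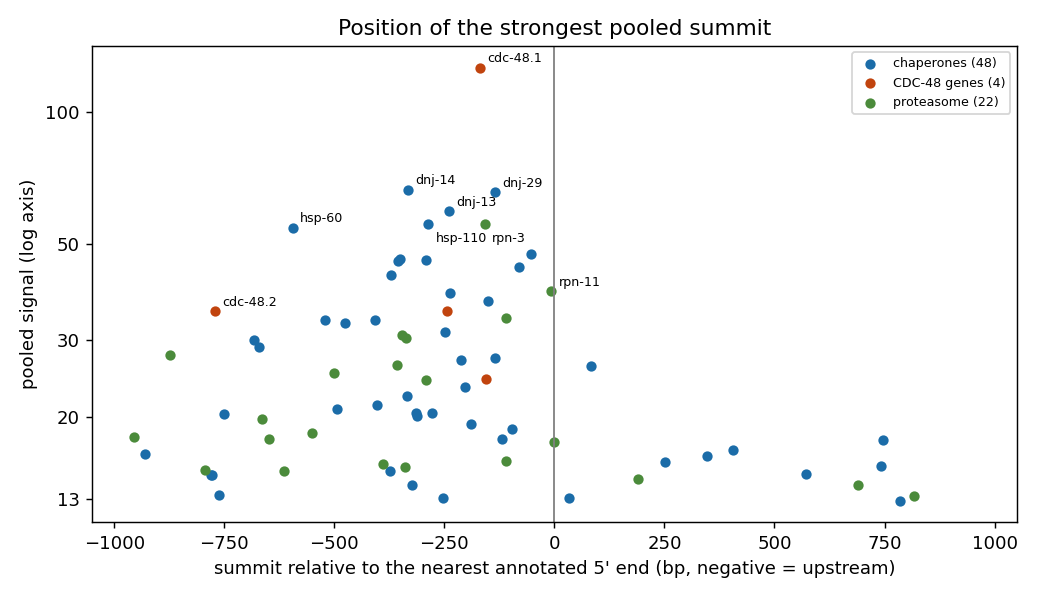
Distance of the strongest pooled summit to the nearest annotated 5' end in bp (horizontal axis, negative upstream) and its authors' signal (vertical log axis), each point 1 of the 74 genes with a pooled region. All summits with a signal above 30 lie upstream of the nearest 5' end, most within 500 bp, and cdc-48.2 is at -770 bp. At hsp-90 and dnj-20 that 5' end is internal, and the summit lies within the gene.

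Motifs were searched on both strands, in promoters (250 bp before to 50 bp after the 5' end) and within 100 bp of the summits. The heat shock pair GAANNTTC or TTCNNGAA was in 41 of 100 promoters, against 32.5% of all, and in 34 of the 72 distinct summit windows (47.2%), against 24.5% for the strongest pooled regions of all genes and 9.28% of IDR peaks. The extended form with a further unit, GAANNTTCNNGAA or TTCNNGAANNTTC, was searched after the data had been seen; it was in 13 of 100 promoters, against 1.96% of all, but in 3 of the 72 summit windows (4.17%), against 1.64%. It was in 6 of 13 small and 4 of 9 large heat shock promoters. These are fewer distinct sequences than genes: all 6 small ones are hsp-16 genes, which lie in divergent pairs, the hsp-16.1 and hsp-16.48 pair in 2 near-identical copies, and the windows of the divergent hsp-110 and rpn-3 overlap. TGACNNNGC was in 11 promoters, against 5.14% of all, and in 7 summit windows (9.72%), against 3.59% for the strongest regions of all genes and 4.64% of IDR peaks. AGGTCA, the core letters of many nuclear receptor sites, was in 3 promoters, against 8.23%, and in 2.78% of the summit windows, against 5.07% and 9.28%. GAGAGA was in 19 promoters, against 21.8%, and in 12.5% of the summit windows, against 14.7% for the strongest regions of all genes, 31.2% of IDR peaks and 35% of the 1000 strongest pooled regions. A match describes letters and not a bound site.

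Of 48 related genes of protein quality control outside the rule, listed by name, 40 had a pooled region (83.3%, against 74 of the 100 genes and 53.7% of all), 11 had one in both replicates (22.9%, against 26 of the 100 and 8.04% of all) and 1 had an IDR peak (2.08%, against 4 of the 100 and 0.921% of all). Its gene is skn-1, a regulator of proteasome and oxidative stress genes, with 86.94 (38.95 and 44.53 in the replicates). Named after their values were seen, the next were sti-1, an Hsp90 co-chaperone, at 48.86, ubxn-3, a CDC-48 adaptor, at 47.62, and bag-1, an Hsp70 exchange factor, at 46.43.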

How the data were processed

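The authors deposited ChIP-seq region lists on ce11 for 2 replicates of 1 group. Per the columns of the deposited lists, each region carries the authors' signal, and the replicate lists a −log10 q-value; in the lists the authors made from both replicates together that column is a score, mostly below 0, and was not used. Regions were called against a control, per the deposited text records. Aligner, caller and IDR threshold: not given in the sources used here. Depth is unknown, so no counting error could be set.

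Summits were joined with scripts in Python to 5' ends of protein-coding genes in Ensembl release 115 (WBcel235, the same assembly as ce11); bases came from the RefSeq copy. Wilson intervals used scipy 1.17.1. The joining was checked on simulated regions. With 1 group there was no test between conditions. The members and gene lists were chosen with earlier results of these data known; the genes named are those with an IDR peak, the CDC-48 group, hsp-90 and hsf-1, and in each other family the strongest pooled regions and those strong in both replicates; genes with none, the other J protein genes, hsp-6, hsp-75 and those at the window's edge were named after their values were seen. The cut at 1000 regions, the overlap of replicate regions, the extended heat shock motif, the shared run and the choice of printed stretches were added after values had been seen. Alternatives were other windows, nearest gene only, stronger regions only, equal list lengths and single replicates. Lists on ce10 were not used.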

Additional observations from a re-analysis of the deposited data

How the results depend on the processing

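Shares of genes with a region depended on the window and on how neighbours were treated. With a window of 500 bp the pooled share fell from 74.0 to 55.0% for all 100 genes, from 80.0 to 65.0% for chaperones and from 66.7 to 36.4% for the proteasome (all genes 36.8%), and the share in both replicates fell from 57.1 to 28.6% for CDC-48 genes (all genes 4.79%). With 2000 bp the pooled shares were 88.0, 90 and 87.9% (all genes 72.4%), the IDR share was 7.0% (all genes 1.45%), and the shares in both replicates were 37% for the 100 genes and 30.3% for the proteasome (all genes 14.2%). With the nearest gene only, the pooled shares were 55.0, 63.3 and 39.4% (all genes 47.8%), and those in both replicates 18% for the 100 genes and 18.3% for chaperones (all genes 6.11%). With only the regions above the median signal of each list, the pooled shares were 53.0, 58.3 and 42.4% (all genes 33.3%) and the IDR share 1.0% (all genes 0.38%). With replicate 1 shortened to the length of replicate 2, the CDC-48 share in both replicates was 28.6% (all genes 4.85%). Leaving out 1 replicate leaves the list of the other. Without replicate 1 the shares were 31.0% for the 100 genes, 30% for chaperones and 27.3% for the proteasome (all genes 13.2%). Without replicate 2 they were 56.0, 66.7 and 36.4% (all genes 32.6%), so the proteasome share was near that of all genes. Of 76 alternatives 46 stayed within 1.5 times and within the Wilson interval, and 30 did not; the cause was not tested. The chaperone share stayed above that of the proteasome in 9 of 9 settings for both replicates and 8 of 8 for the pooled list, and CDC-48 genes had the highest share in both replicates in 8 of 9. The same single-replicate lists enter both tallies, and enter the 76 alternatives more than once. All settings are variants of the same lists, so the tallies are not independent. No paired analysis was possible because there is 1 group. Depth and the IDR threshold are unknown, so a gene without a region is not shown to be unbound.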

Other observations

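Of the 74 genes with a pooled region, the pooled summit lay in a region of both replicates at 24 (32.4%, against 9.67% of all genes with a pooled region). It lay in a region of replicate 1 only at 22, of replicate 2 only at 5 and of neither at 23. Only the count for both replicates was also made over all genes, so the others have no background. Across the 26 genes with a region in both replicates the signals of the replicates had Pearson's r 0.651 and Spearman's rho 0.251, and across all 1607 such genes 0.847 and 0.476. Across the 18 chaperone genes they were 0.165 and 0.191, and across the 10 dnj genes among these 0.746 and 0.552. The 26 include cdc-48.1, the highest in both replicates, and count the shared hsp-110 and rpn-3 region for both genes. These are correlations across genes that share 2 libraries, and genes are not independent replicates. The GC content within 100 bp of the summit had a median of 37.3% at the 72 distinct regions of the 100 genes, 43.8% at IDR peaks and 35.8% at the strongest pooled regions of all genes.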
